A study of Mus musculus with 16 samples.

Results

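The comparison set neutrophils labelled as lacking both the oxygen sensor PHD2 and the transcription factor HIF2α against their wild-type controls, across all genes. The libraries were chosen by the group names at the start of their column headers, and 8 of the 16 libraries of the study entered it, 4 in each group. The 4 P2H2KO libraries carry the label Vav:cre-PHD2/HIF2ff/ff, read here as loxP-flanked alleles of PHD2 (gene Egln1) and HIF2α (gene Epas1) with a Cre recombinase under the Vav promoter. The Vav promoter is active in blood-forming cells in general, so the deletion is not restricted to neutrophils. The 4 P2H2WT libraries are labelled as wild type, and the labels used here do not say whether these mice carried Cre or floxed alleles. All 8 came from C57BL/6 mice aged 8 to 12 weeks, with bones given as the tissue and total RNA as the molecule. The design text describes the cells as sorted by flow cytometry. The remaining 8 libraries of the study come from a line lacking PHD2 alone and from its own wild-type controls. The labels do not say that each library is a separate mouse. The p-values below therefore weigh differences between the groups against the spread between libraries, which may be partly technical.

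PHD2 is a prolyl hydroxylase that uses oxygen to modify the α subunits of the hypoxia-inducible factors HIF1 and HIF2. The modified subunits are bound by the VHL protein and degraded, so that loss of PHD2 leaves them stable even in normal oxygen. Stabilised α subunits pair with ARNT and bind a short core motif near target genes. HIF1 is best known for glycolytic enzymes, glucose uptake and BNIP3-type mitophagy, and HIF2 for erythropoietin and iron transport. Neutrophils draw most of their energy from glycolysis, and HIF activity is known to prolong their survival. The title of the series concerns HIF2α and neutrophil motility, and this comparison asks which transcripts differ when PHD2 and HIF2α are deleted together.

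Total counts ranged from 23450746 to 28601284 per library, with 19611 to 19996 genes detected. Across genes, r lay between 0.977 and 0.991 for the 12 pairs within a group, and each pair differed by more than sampling noise. Libraries are named below by the number in their titles, which are 11, 12, 15 and 17 for P2H2KO and 13, 14, 16 and 18 for P2H2WT. The first principal component held 40.5% of the variance and did not follow genotype. It placed numbers 11 to 14 between -31.05 and -13.8 and numbers 15 to 18 between 6.17 and 36.7, with 2 libraries of each genotype on each side. The labels call neither side a batch, and the m and f suffixes of the titles are unevenly split, with 4 m among the lower numbers and 1 m and 3 f among the higher. Libraries 15 and 17 of P2H2KO and 16 of P2H2WT carry f. They had 3847, 2598 and 3941 counts of Xist and 0 of the Y-linked gene Ddx3y. The m libraries had at most 2 counts of Xist and 1307 to 1468 of Ddx3y, so the suffix is read here as sex. It is thus uneven between the genotypes as well. Levels are given in CPM, the usual count unit scaled to library size, and they are comparable between libraries for 1 gene but not between genes.

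Markers of neutrophils were abundant in every library. The 11 mature neutrophil genes together, among them the calprotectin subunits S100a8 and S100a9, summed to between 20878 and 38971 CPM in P2H2KO and between 21339 and 32831 CPM in P2H2WT. Ly6g, the surface antigen by which mouse neutrophils are commonly sorted, was at 145, 114, 233 and 264 CPM in P2H2KO libraries 11, 12, 15 and 17 and at 153, 130, 142 and 216 CPM in P2H2WT libraries 13, 14, 16 and 18. RNA of other cells was present as well. The haemoglobin and other erythroid genes summed to between 24671 and 47017 CPM in P2H2KO and between 35405 and 50308 CPM in P2H2WT. They held more of the counts than the 11 mature neutrophil genes in every library except P2H2KO 15 and 17. Those 11 leave out the 7 specific and gelatinase granule genes, which are also neutrophil genes. These 7 summed to between 27857 and 51193 CPM in P2H2KO and between 29040 and 43884 CPM in P2H2WT. The comparison is thus between 2 lists and not between all RNA of the 2 cell types. Monocyte and macrophage genes summed to 2124 to 3705 against 2453 to 3674 CPM, eosinophil, basophil and mast cell genes to 3748 to 5825 against 4717 to 5675, B-lineage genes to 225 to 622 against 366 to 775, and T and NK genes to 109 to 150 against 123 to 139. These summed levels overlapped between the groups. The libraries are bulk mixtures, so a gene that differs below is not thereby assigned to neutrophils, and its cell of origin was not tested.

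The quasi-likelihood test of edgeR called 10 of 13435 tested genes (0.0744%) at a Benjamini-Hochberg adjusted p under 0.05, and all 10 were higher in P2H2KO. Of the 10, Ankrd37, Egln3, Bnip3, Pfkl, Aldoc, Tpi1, Pdk1 and P4ha1 are textbook HIF targets or enzymes of glycolysis, whereas Dubr is a long noncoding RNA and Gm6472 a pseudogene. Without adjustment, 354 genes (2.63%) had a p under 0.05, comprising 218 higher (1.62%) and 136 lower (1.01%). Were no gene different, a share of about 0.05 would be expected, so these unadjusted counts are no excess. DESeq2 called 42 genes, the 10 among them, with 33 higher (0.246%) and 9 lower (0.0670%). By edgeR 0 genes passed as lower, against 136 at the unadjusted p and 9 by DESeq2. Over all tested genes 50.5% were higher and 49.5% lower, with a median log2 fold change of 0.0011.

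**Figure D1:**
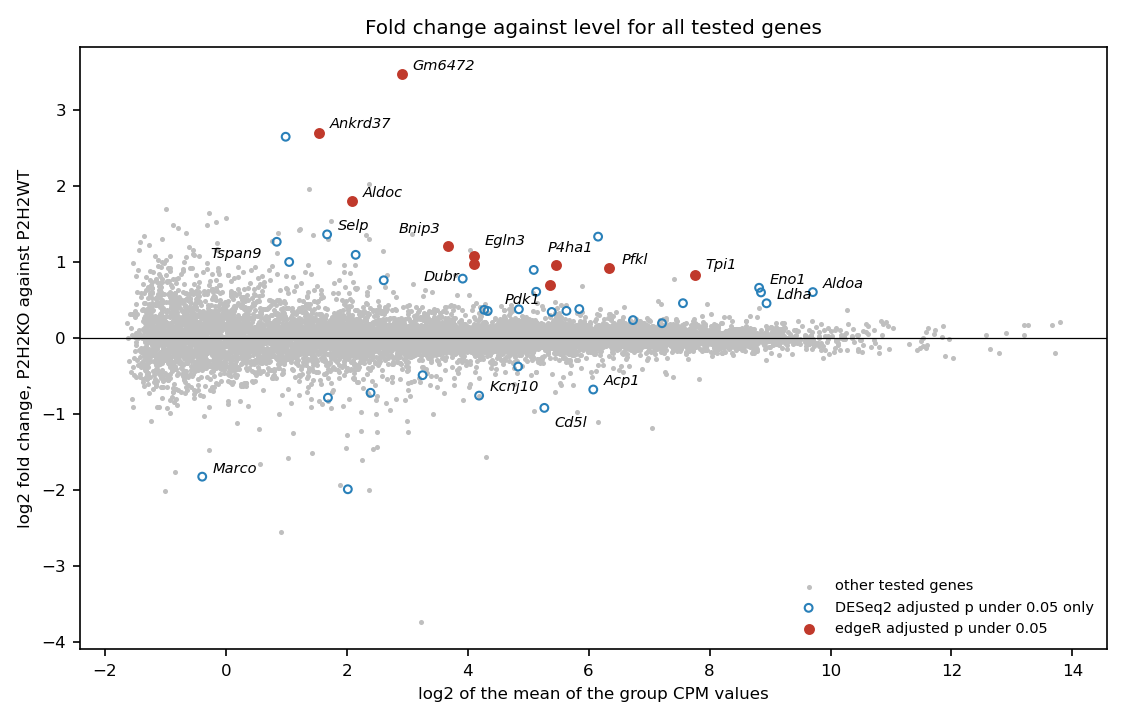
Each point is 1 of the 13435 tested genes, with the log2 of the mean of the 2 group levels in CPM on the horizontal axis and the log2 fold change of P2H2KO against P2H2WT on the vertical axis. The 10 red points, past the edgeR threshold, all lie above 0, and the open blue points pass in DESeq2 only.

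HIF complexes are known to bind a core of 5 bases, written ACGTG or, with another first base, GCGTG, on either strand. The 250 bases before the start site of 6 of the 10 genes are shown because these genes were called with any 1 library left out or encode the hydroxylase P4ha1, and because they span a range from several copies of the core to none. Sequences are those of RefSeq on GRCm38.p6, read 5′ to 3′ on the strand of the gene, with capitals marking the core in either spelling or its reverse complement, which reads CACGT for the former and CACGC for the latter. Copies that overlap merge into 1 stretch of capitals. The decimal after the chromosome number in the labels of the sequences carries no meaning. Start sites are those of RefSeq and can differ from the ends of the GENCODE gene ranges given below. The windows of Ankrd37, Pfkl, Tpi1 and Bnip3 lie wholly or partly inside those ranges.

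Ankrd37 promoter, chr8.0:45999851-46000100, minus strand: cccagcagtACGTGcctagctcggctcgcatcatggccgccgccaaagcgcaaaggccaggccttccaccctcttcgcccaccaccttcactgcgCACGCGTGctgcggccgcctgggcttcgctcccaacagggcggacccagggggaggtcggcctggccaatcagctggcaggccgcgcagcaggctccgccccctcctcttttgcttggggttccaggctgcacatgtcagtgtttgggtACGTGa
Bnip3 promoter, chr7.0:138909507-138909756, minus strand: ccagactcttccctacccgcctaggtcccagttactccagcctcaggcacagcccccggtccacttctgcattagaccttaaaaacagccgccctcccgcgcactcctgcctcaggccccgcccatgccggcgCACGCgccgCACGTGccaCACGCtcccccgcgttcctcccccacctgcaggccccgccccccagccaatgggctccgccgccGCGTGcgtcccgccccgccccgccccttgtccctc
Egln3 promoter, chr12.0:54203875-54204124, minus strand: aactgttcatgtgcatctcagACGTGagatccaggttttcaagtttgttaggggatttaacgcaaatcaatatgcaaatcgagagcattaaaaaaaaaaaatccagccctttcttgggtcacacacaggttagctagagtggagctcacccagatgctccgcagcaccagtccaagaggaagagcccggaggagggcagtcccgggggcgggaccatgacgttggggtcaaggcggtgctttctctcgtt
P4ha1 promoter, chr10.0:59323046-59323295, plus strand: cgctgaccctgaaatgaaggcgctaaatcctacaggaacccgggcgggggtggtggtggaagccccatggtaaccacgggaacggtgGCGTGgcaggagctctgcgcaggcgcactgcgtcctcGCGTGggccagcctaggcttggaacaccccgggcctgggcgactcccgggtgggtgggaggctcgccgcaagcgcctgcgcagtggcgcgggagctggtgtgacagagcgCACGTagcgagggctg
Pfkl promoter, chr10.0:78009808-78010057, minus strand: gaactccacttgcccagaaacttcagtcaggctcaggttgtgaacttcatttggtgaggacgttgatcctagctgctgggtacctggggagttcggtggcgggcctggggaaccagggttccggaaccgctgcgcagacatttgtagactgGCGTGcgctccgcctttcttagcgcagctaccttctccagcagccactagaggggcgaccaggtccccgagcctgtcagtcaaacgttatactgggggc
Tpi1 promoter, chr6.0:124814159-124814408, minus strand: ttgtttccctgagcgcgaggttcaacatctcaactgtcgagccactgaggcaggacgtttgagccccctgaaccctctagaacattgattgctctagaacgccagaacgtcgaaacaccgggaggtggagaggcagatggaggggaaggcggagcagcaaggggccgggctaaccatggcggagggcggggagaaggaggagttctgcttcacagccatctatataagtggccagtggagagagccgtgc

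A core was found in 8 of the 9 called genes with a promoter window, or 88.9%, and Gm6472 had no window. The window of Ankrd37 held 4 copies, the nearest starting 6 bases before the start site, and that of Bnip3 held 5 counted on both strands. Those of Pfkl and Egln3 held 1 each, Aldoc, Pdk1 and Dubr also 1 each, and P4ha1 held 3. No copy lay in the 250 bases before Tpi1, which says only that the letters are not in that window. Of all 27025 promoter windows in RefSeq used here, 10431 or 38.6% held a core, and among the 9982 windows of tested genes 56.0%, so the motif is common at expressed genes. It was present in 19 of 27 windows of the genes that DESeq2 called higher (70.4%) and in 2 of 7 of those it called lower (28.6%). The median GC content was 59.2% in the windows of the 10 genes and in those higher by DESeq2, 47.6% in those lower and 59.6% in those of tested genes. Among genes higher at an unadjusted p under 0.05 the share was 45.3% (72 of 159), and among those lower 43.9% (36 of 82). A match is a description of the sequence and not a bound site.

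The targeted genes were examined for a check of the labels. Egln1, which encodes PHD2 (minus strand of chromosome 8, from 124908587 to 124949324, with coordinates here and below taken from GENCODE M21 on GRCm38), was at 48.3, 49.5, 57.3 and 53.2 CPM in P2H2KO and at 52.5, 46.9, 52.2 and 53.0 CPM in P2H2WT. The groups overlapped, with a difference of 0.02 in log2(CPM + 1) and an exact two-sided permutation p of 0.743. Epas1, which encodes HIF2α (chromosome 17, 86753700 to 86833410, plus strand), was at 3.36, 4.44, 6.12 and 8.21 CPM in P2H2KO and at 4.90, 3.40, 2.51 and 3.14 CPM in P2H2WT. Its level was not reduced in P2H2KO, with a difference of 0.51 and an exact two-sided permutation p of 0.171, where 4 against 4 libraries cannot give less than 0.0286. In edgeR its log2 fold change was 0.66 (SE 0.29, which did not pass). The difference was -0.06 among numbers 11 to 14 and 1.09 among numbers 15 to 18. Counts are summed over whole genes, so transcripts that lack the deleted exons are counted like intact ones, and neither gene checks the genotype labels. Every direction below rests on those labels.

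Of the rest of the oxygen-sensing system only Egln3 passed the test. Egln3 encodes PHD3, a sister enzyme of PHD2 that is itself a HIF target and dampens the response. Egln3 (chromosome 12, 54178981 to 54203860, minus strand) was at 19.8, 26.1, 24.4 and 23.2 CPM in P2H2KO and at 11.9, 10.1, 11.1 and 10.9 CPM in P2H2WT, so that all P2H2KO libraries lay above all P2H2WT libraries. Its log2 fold change was 1.08 (SE 0.10, adjusted p 0.00385). Over all genes, 127 (0.945%) had every P2H2KO library above every P2H2WT library and 103 (0.767%) every one below. The other subunits and enzymes moved little. Of 13 tested genes of the list, 8 were higher and 5 lower, and the median was 0.01. Hif1a was at 70.6, 81.4, 106.9 and 82.9 CPM against 85.3, 77.4, 101.4 and 84.2 CPM, and its log2 fold change of -0.03 (SE 0.13) did not pass. Arnt (-0.04), Egln2 (0.01), Vhl (0.11) and Hif1an, the asparagine hydroxylase FIH (-0.01), did not pass either. Members of lists that are given with values here and below, beyond those named by the rule, were chosen after their values were seen.

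Ankrd37, an ankyrin-repeat gene that is among the most sensitive HIF targets, had the largest change among the called protein-coding genes. It was at 4.21, 6.07, 4.58 and 5.39 CPM in P2H2KO and at 0.846, 0.820, 0.685 and 0.746 CPM in P2H2WT. The lowest P2H2KO library thus held several times the level of the highest control, and the log2 fold change was 2.70 (SE 0.17, adjusted p 0.000414). Its exons on chromosome 8 (45996902 to 46005707, minus strand) overlap those of Lrp2bp and Ufsp2, and the use of strand in counting is not given in the sources used here. Ufsp2 had a log2 fold change of 0.38 (SE 0.08, adjusted p 0.590 in edgeR and 0.0259 in DESeq2).

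Bnip3, a receptor on the outer mitochondrial membrane that recruits the autophagy machinery, was at 16.2, 19.5, 17.99 and 17.97 CPM in P2H2KO and at 8.63, 6.64, 7.61 and 7.97 CPM in P2H2WT. The groups were far apart, with a log2 fold change of 1.21 (SE 0.10, adjusted p 0.00233). Bnip3 lies on chromosome 7 (138890836 to 138909519, minus strand) and overlaps the predicted gene Gm45507. Among 6 tested mitophagy genes it was the only one past either threshold. Its relative Bnip3l was at -0.09 and Pink1, the kinase that marks damaged mitochondria, at -0.25, and the list median was -0.04. P4ha1 encodes the catalytic subunit of the collagen prolyl hydroxylase. It lies on chromosome 10 (59323296 to 59373304, plus strand) and was at 52.8, 57.1, 67.7 and 53.9 CPM in P2H2KO and at 26.0, 29.7, 32.6 and 30.7 CPM in P2H2WT. Library 15 was the highest of the P2H2KO group, the groups did not overlap, and the log2 fold change was 0.96 (SE 0.10, adjusted p 0.00920). Without P2H2WT library 13, 14 or 18 in turn P4ha1 was no longer called. P4hb, Plod1, Plod2 and Plod3 of the same list lay between -0.14 and 0.19, and none passed.

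**Figure D2:**
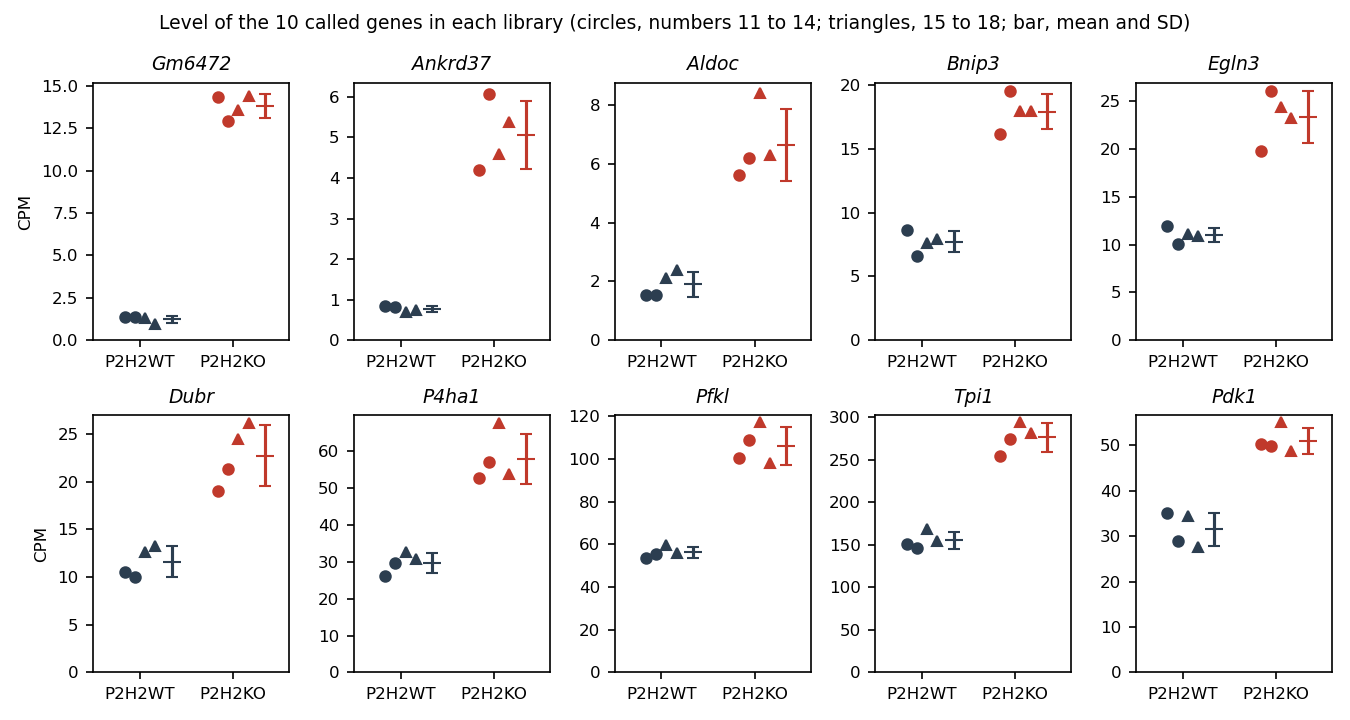
Each panel shows 1 of the 10 genes past the edgeR threshold, with the level in CPM on a vertical axis from 0 and 1 point per library, circles for title numbers 11 to 14 and triangles for 15 to 18, beside the mean with its SD. In every panel the 4 P2H2KO points lie above the 4 P2H2WT points, in both number ranges.

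Most glycolytic genes were higher in P2H2KO, and 3 of them passed the test. Phosphofructokinase commits glucose to the pathway, and Pfkl encodes its liver-type subunit (chromosome 10, 77986947 to 78010083, minus strand). Pfkl was at 100.5, 108.7, 117.3 and 97.9 CPM in P2H2KO and at 53.7, 55.4, 59.9 and 55.9 CPM in P2H2WT. All 4 P2H2KO libraries were well above the controls, and the log2 fold change was 0.92 (SE 0.08, adjusted p 0.00233). Its sister subunits differed from it in size of change, at -0.01 for Pfkm and 0.38 for Pfkp. Triose phosphate isomerase, encoded by Tpi1 on chromosome 6 (124810586 to 124814296, minus strand), was at 254, 275, 295 and 282 CPM in P2H2KO and at 151, 146, 169 and 155 CPM in P2H2WT. The lowest P2H2KO library exceeded the highest control, with a log2 fold change of 0.83 (SE 0.08, adjusted p 0.00385). Tpi1 shares exonic bases with Spsb2, which was at 0.11.

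Aldolase splits fructose bisphosphate. Aldoc, the aldolase isoform best known from brain (chromosome 11, 78322968 to 78327781, plus strand), was at 5.61, 6.19, 8.40 and 6.31 CPM in P2H2KO and at 1.55, 1.52, 2.13 and 2.39 CPM in P2H2WT. The groups were separate, and the log2 fold change of 1.80 (SE 0.20, adjusted p 0.0106) was the largest in the pathway. Aldoc was no longer called without P2H2KO library 17 or without P2H2WT library 13, 14 or 16. The main isoform Aldoa was at 857, 867, 1158 and 1152 CPM in P2H2KO and at 620, 546, 730 and 757 CPM in P2H2WT. Aldoa also did not overlap, but both groups held higher values in the higher-numbered libraries, and the log2 fold change of 0.60 (SE 0.15) had an adjusted p of 0.779 in edgeR and 0.0381 in DESeq2.

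Of the 10 tested upper glycolysis genes, from the hexokinases to Tpi1, 9 were higher and 1 lower, 3 passed the edgeR threshold (Pfkl, Aldoc, Tpi1), 5 had an unadjusted p under 0.05 and the median was 0.32. The hexokinases Hk1, Hk2 and Hk3 were at 0.01, 0.27 and 0.12, and Gpi1 at 0.18, none past a threshold. Of the 8 tested lower glycolysis genes, from Gapdh to the lactate dehydrogenases, 7 were higher, 5 had an unadjusted p under 0.05, none passed in edgeR, 3 passed in DESeq2 (Eno1, Gapdh, Ldha) and the median was 0.43. Glyceraldehyde phosphate dehydrogenase, Gapdh, was at 512, 464, 592 and 657 CPM in P2H2KO and at 333, 331, 419 and 385 CPM in P2H2WT. Enolase, Eno1, was at 472, 482, 635 and 625 CPM in P2H2KO and at 326, 290, 380 and 404 CPM in P2H2WT. Ldha, which makes lactate from pyruvate, was at 511, 521, 607 and 636 CPM in P2H2KO and at 404, 380, 427 and 447 CPM in P2H2WT. In all 3 genes the P2H2KO libraries lay above the P2H2WT libraries, with log2 fold changes of 0.60 (SE 0.13), 0.66 (SE 0.14) and 0.46 (SE 0.10). Pgk1, at 0.48 (SE 0.14), also did not overlap, and passed in neither tool. Many processed pseudogenes of Gapdh and of other glycolytic genes are known, so their counts depend on how shared reads were assigned.

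Among the 5 transport genes 4 were higher, 2 had an unadjusted p under 0.05 and the median was 0.28. The glucose transporter gene Slc2a1 was at 32.3, 46.1, 57.4 and 41.7 CPM in P2H2KO and at 19.3, 22.5, 25.8 and 27.8 CPM in P2H2WT, with a log2 fold change of 0.90 (SE 0.18, adjusted p 0.368 in edgeR and 0.00220 in DESeq2). Slc16a3, the lactate exporter MCT4, was at 165.6, 176.6, 280 and 241 CPM in P2H2KO and at 113.7, 92.7, 139.6 and 160.2 CPM in P2H2WT. Both genes separated the groups, Slc16a3 by a narrow margin, and its log2 fold change of 0.77 (SE 0.21) passed in neither tool. The other importers Slc2a3 (0.28) and Slc2a6 (0.24) and the transporter Slc16a1 (-0.13) overlapped between the groups.

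Many of these genes had higher levels at title numbers 15 to 18 than at 11 to 14 in both genotypes, while the difference between the genotypes was similar within each range. On the log2(CPM + 1) scale, with 2 libraries against 2 and so no test, the difference of P2H2KO from P2H2WT was 0.63 among numbers 11 to 14 and 0.68 among numbers 15 to 18 for Eno1, 0.86 and 0.84 for Slc2a1, 0.73 and 0.79 for Slc16a3, 0.56 and 0.63 for Aldoa, and 0.55 and 0.63 for Gapdh. With the number range as a covariate, a model chosen after the data had been seen, edgeR called 28 genes, 25 higher and 3 lower, including the 10. Those added included Aldoa (adjusted p 0.00392), Eno1 (0.00107), Slc16a3 (0.00408), Gapdh (0.00418), Ldha (0.0138), Pgk1 (0.0187) and Slc2a1 (0.0363). With the title suffix, read as sex, as a covariate none of these 7 was called, at adjusted p from 0.199 (Gapdh) to 0.949 (Slc16a3). With the title number Pgk1 (0.0501) and Slc2a1 (0.0554) were not called and the other 5 were, and with erythroid and granule scores all but Gapdh (0.0722) were. With the number range, the log2 fold changes of 0.60 for Aldoa, 0.66 for Eno1 and 0.76 for Slc16a3 were close to those without a covariate. In the same order they were 0.51, 0.57 and 0.63 with the suffix and 0.50, 0.56 and 0.60 with the scores. With the title number they were 0.72, 0.78 and 0.95.

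Pyruvate enters mitochondria through pyruvate dehydrogenase, which Pdk1 phosphorylates and shuts off. Pdk1 (chromosome 2, 71873224 to 71903858, plus strand) was at 50.2, 49.7, 55.2 and 48.7 CPM in P2H2KO and at 35.0, 28.9, 34.3 and 27.6 CPM in P2H2WT. The groups did not overlap, and the log2 fold change was 0.70 (SE 0.09, adjusted p 0.0461). Pdk1 was not called when any 1 of the 8 libraries was left out. Of the 10 tested genes of this group it alone passed, and Pdk2 and Pdk3 were at -0.05 and 0.10. The enzyme subunits Pdha1, Pdhb, Dlat, Dld and Pdhx lay between -0.08 and 0.01. None of 16 tested tricarboxylic acid cycle genes, 7 pentose phosphate genes or 4 PFKFB genes, which set the level of an activator of phosphofructokinase, had an unadjusted p under 0.05, and their medians were -0.03, 0.04 and 0.09.

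**Figure D3:**
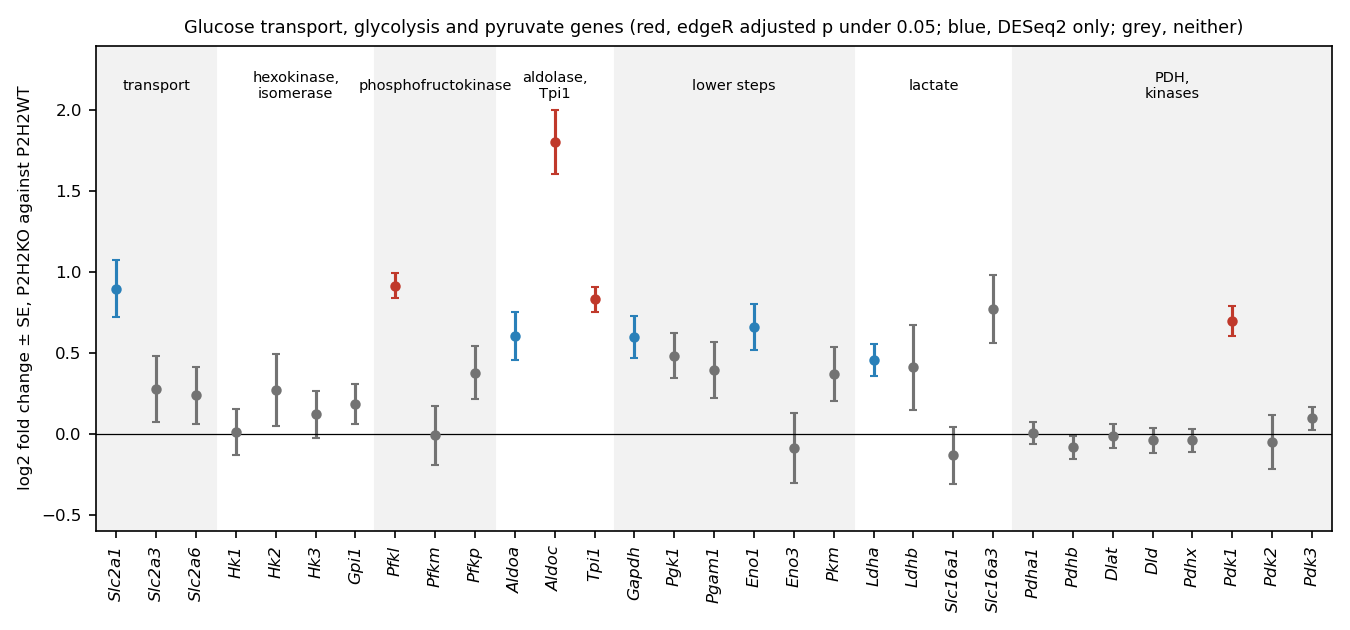
Points are log2 fold changes of P2H2KO against P2H2WT with their SE for tested genes of glucose transport, glycolysis, lactate and pyruvate metabolism, grouped by step, red where edgeR passed the threshold, blue where DESeq2 alone did and grey where neither did. Pfkl, Aldoc and Tpi1 stand out in the upper pathway, and in the pyruvate group Pdk1 at 0.70 is the only one far from 0.

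The list of other HIF targets also holds genes of metabolism, such as Gys1, Pygl and Ak4. Of its 16 tested genes, 13 were higher and 3 lower, 4 had an unadjusted p under 0.05 (Ankrd37, Mif, Ak4 and Gys1) and the median was 0.20. Mif, a cytokine that holds macrophages in place, was at 42.0, 43.0, 40.8 and 43.7 CPM in P2H2KO and at 28.8, 27.9, 32.2 and 22.3 CPM in P2H2WT. The spread was small in P2H2KO and no library overlapped, with a log2 fold change of 0.61 (SE 0.10, adjusted p 0.224 in edgeR and 0.000188 in DESeq2). Ak4, a mitochondrial adenylate kinase, was at 2.51, 3.33, 3.15 and 2.03 CPM in P2H2KO and at 1.52, 1.48, 1.22 and 1.29 CPM in P2H2WT, also apart, with a log2 fold change of 1.0 (SE 0.19, adjusted p 0.355 in edgeR and 0.00831 in DESeq2). Other well-known targets overlapped between the groups, among them Vegfa at 0.19, Ndrg1 at 0.34 and Ddit4 at 0.45. Hmox1, haem oxygenase, was at -0.47. Adm, Nos2 and Arg1 had too few counts to be tested.

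Histone demethylases that need oxygen are also known HIF targets. All 7 tested genes were higher, with a median of 0.10, and 2 had an unadjusted p under 0.05. Kdm3a was at 54.5, 60.4, 52.7 and 55.3 CPM in P2H2KO and at 41.6, 44.6, 44.0 and 43.9 CPM in P2H2WT, separate and tight in both groups, with a log2 fold change of 0.36 (SE 0.06, adjusted p 0.290 in edgeR and 0.000111 in DESeq2). Kdm4b was at 0.22 (SE 0.09) and also did not overlap. Of 9 genes known as HIF2-preferring targets only 4 had enough counts, 2 higher and 2 lower, none past a threshold, with a median of -0.02. Epo, the best-known HIF2 target, had no count in any library, and the iron transporters Slc11a2 and Slc40a1 were at -0.11 and -0.20.

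The noncoding RNA Dubr (chromosome 16, 50719294 to 50732773, minus strand) was at 19.0, 21.3, 24.4 and 26.1 CPM in P2H2KO and at 10.5, 10.03, 12.6 and 13.3 CPM in P2H2WT. The groups were separate and both were higher at numbers 15 to 18, and the log2 fold change was 0.97 (SE 0.13, adjusted p 0.0461). Dubr was called in 1 of the 8 fits that left out a library. The largest change among the called genes was that of Gm6472 (chromosome X, 152909505 to 152910155, minus strand), a transcribed processed pseudogene of the ribosomal protein gene Rps7. It was at 14.3, 12.9, 13.6 and 14.4 CPM in P2H2KO and at 1.37, 1.37, 1.29 and 0.942 CPM in P2H2WT. The groups formed 2 tight clusters, with a log2 fold change of 3.46 (SE 0.13, adjusted p 8.07e-06). Gm6472 is 99.4% identical to the Rps7 transcript over its 651 bases, so its count is uncertain. Rps7 itself was at 244 to 264 CPM in P2H2KO and 239 to 285 CPM in P2H2WT, with a log2 fold change of -0.06 (SE 0.08), and the part of Rps7 reads in the difference was not tested.

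Further genes passed in DESeq2 but not in edgeR. Lack of overlap between the groups was a condition for naming them, so it adds nothing to the calls. Higher in P2H2KO was Selp, the adhesion molecule P-selectin of platelets and endothelium, at 3.19, 3.10, 5.84 and 6.27 CPM against 1.69, 1.56, 2.28 and 1.61 CPM, a log2 fold change of 1.36 (SE 0.27, adjusted p 0.402 in edgeR and 0.00307 in DESeq2). Libraries 15 and 17 held the most. The 9 megakaryocyte and platelet genes, of which 8 were higher with a median of 0.48 and 1 (Pf4, 0.82) had an unadjusted p under 0.05, summed to 86.8, 58.8, 30.9 and 49.3 CPM in P2H2KO and to 40.6 to 46.4 CPM in P2H2WT. Their highest sum was in library 11 and not in 15 or 17. The tested endothelial genes, 7 higher and 2 lower with a median of 0.38 and 1 (Tek, 1.16) at an unadjusted p under 0.05, summed to 38.5, 38.02, 48.5 and 43.7 CPM in P2H2KO and 33.9 to 40.2 CPM in P2H2WT, and the 2 highest sums were in the libraries with the most Selp. The part of platelet or endothelial RNA in the Selp result was not tested.

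Prok2, which encodes the chemoattractant prokineticin made by neutrophils, was at 3.70, 5.28, 8.82 and 6.31 CPM in P2H2KO and at 2.33, 2.34, 3.12 and 3.53 CPM in P2H2WT. The lowest P2H2KO library was just above the highest control, with a log2 fold change of 1.09 (SE 0.27, adjusted p 0.0409 in DESeq2). Tspan9, a tetraspanin, was at 1.26 (SE 0.20, adjusted p 0.000305 in DESeq2), the glyoxylate reductase gene Grhpr at 0.78 (SE 0.12, 2.76e-05), the complement gene C4b at 0.76 (SE 0.17, 0.0177) and the mitochondrial lipid transfer gene Prelid1 at 0.46 (SE 0.11, 0.0448). Tspan9 had 3.02, 2.74, 1.99 and 2.38 CPM in P2H2KO against 1.02, 1.33, 1.03 and 0.824 CPM in P2H2WT. Within P2H2KO the libraries ranked as by the megakaryocyte and platelet sum, though in library 15 that sum lay below every control. The part of platelet RNA in the Tspan9 result was not tested. Grhpr had 20.5, 19.9, 15.9 and 20.1 CPM in P2H2KO against 12.2, 12.8, 9.78 and 9.70 CPM in P2H2WT, lowest in library 15 of the first group yet above every control.

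On the lower side, 8 genes are named. Marco, a macrophage scavenger receptor, was at 0.468, 0.357, 0.210 and 0.309 CPM against 0.916, 1.29, 1.14 and 1.41 CPM, a low level, with a log2 fold change of -1.82 (SE 0.27, adjusted p 0.0965 in edgeR and 0.000916 in DESeq2). Cd5l, a secreted protein of tissue macrophages, was at 26.2, 24.8, 20.2 and 35.6 CPM in P2H2KO and at 52.8, 63.1, 40.9 and 44.5 CPM in P2H2WT. Library 17 was nearest to the controls, and the log2 fold change was -0.92 (SE 0.19, adjusted p 0.412 in edgeR and 0.00300 in DESeq2). The other named genes on this side were the glutamate transporter gene Slc1a3 (-0.78), the potassium channel gene Kcnj10 (-0.76), the cytokine gene Il18 (-0.72), the phosphatase gene Acp1 (-0.68), Fam213b (-0.49) and the cholesterol exporter gene Abca1 (-0.37).

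Of 15 monocyte and macrophage genes, 3 were higher and 12 lower, 10 of the lower had an unadjusted p under 0.05, 3 had all P2H2KO libraries below all P2H2WT libraries (Cd5l, Siglec1 and C1qc), none passed in edgeR and the median was -0.43. The 10 genes are known from resident macrophages, among them the complement genes C1qa (-0.43), C1qb (-0.44) and C1qc (-0.51), the adhesion receptor genes Siglec1 (-0.71) and Vcam1 (-0.53), the mannose receptor gene Mrc1 (-0.44) and the red pulp and marrow macrophage factor Spic (-0.57). Siglec1 was at 24.7, 27.7, 35.8 and 43.7 CPM in P2H2KO and at 44.9, 56.7, 53.3 and 60.3 CPM in P2H2WT. The other 5 members, which are also expressed by monocytes, had no unadjusted p under 0.05, with Ccr2 at 0.11, Csf1r at 0.13, F13a1 at 0.03, Cx3cr1 at -0.004 and Ms4a6c at -0.08. Dividing the list in this way followed from its values, and a difference between the 10 and the 5 was not tested. In bulk libraries, fewer cells of a type and less RNA per cell cannot be told apart.

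**Figure D4:**
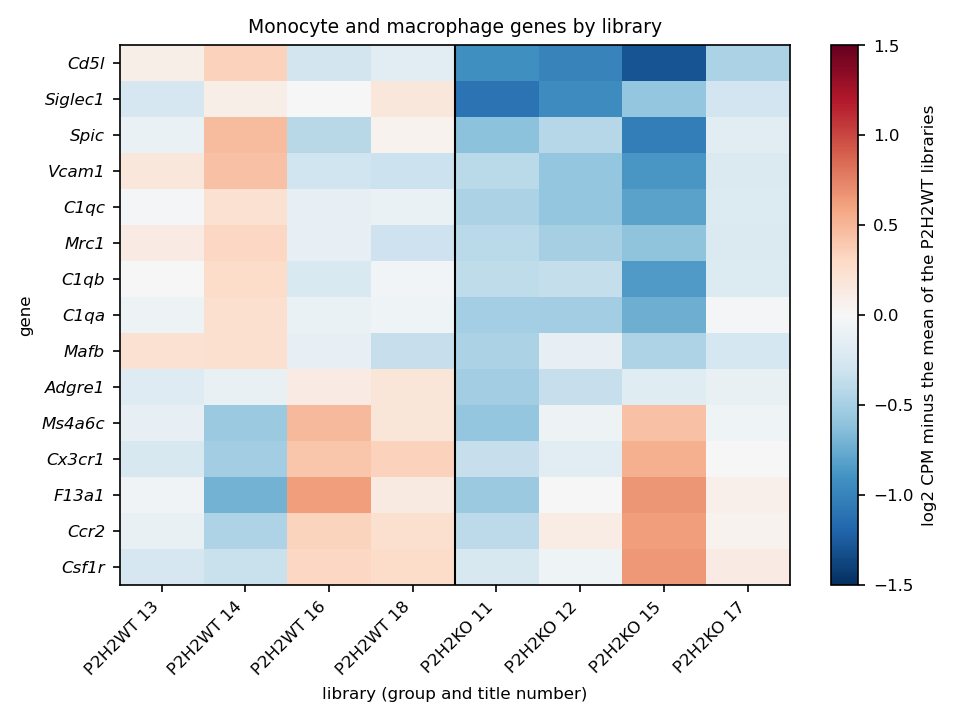
Colour gives the log2 CPM of each monocyte or macrophage gene (rows) in each library (columns) minus the mean of the P2H2WT libraries, blue for lower and red for higher. The 10 genes in the upper rows are mostly blue in P2H2KO, deepest for most in library 15 and palest for most in library 17. The 5 in the lower rows are reddest in libraries 15 and 16, 1 of each genotype, and paler red in P2H2WT library 18.

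Genes of neutrophil movement were mostly slightly higher in P2H2KO, none past a threshold after adjustment. All 8 chemoattractant receptor genes were higher, with a median of 0.12, and only Cxcr2, the receptor for neutrophil chemokines, had an unadjusted p under 0.05. Cxcr2 was at 265, 244, 309 and 336 CPM in P2H2KO and at 233, 207, 205 and 285 CPM in P2H2WT. The groups overlapped, since library 18 of the controls exceeded libraries 11 and 12 of P2H2KO, and the log2 fold change was 0.31 (SE 0.14). Of 16 integrin and adhesion genes 13 were higher, with a median of 0.08 and a range from -0.15 (Icam1) to 0.19 (Itgam). Of 30 actin cytoskeleton genes 28 were higher, with a median of 0.06 and a range from -0.01 to 0.15 (Lcp1). Neither list had a member with an unadjusted p under 0.05.

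Granule and maturity genes leaned the same way. All 6 azurophilic granule genes (median 0.20), all 7 specific and gelatinase granule genes (0.16), all 11 mature neutrophil genes (0.21) and all 6 NADPH oxidase genes (0.13) were higher, and of these 30 entries only Cxcr2 had an unadjusted p under 0.05. The summed mature neutrophil level was 24567, 20878, 30873 and 38971 CPM in P2H2KO and 24105, 21339, 22634 and 32831 CPM in P2H2WT, so that the differences between libraries of a group were larger than that between the groups. The erythroid genes leaned the other way, with 12 of 13 lower and a median of -0.15, as did 11 of 11 B-lineage genes (-0.35), 11 of 12 eosinophil, basophil and mast cell genes (-0.09), 8 of 12 T and NK genes (-0.09) and 18 of 19 cell cycle genes (-0.07), none with an unadjusted p under 0.05. The part of this mixture in the small differences of the movement genes was not tested. Members of such a list vary together with the cells in a library, so a shared direction is not so many separate observations.

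**Figure D5:**
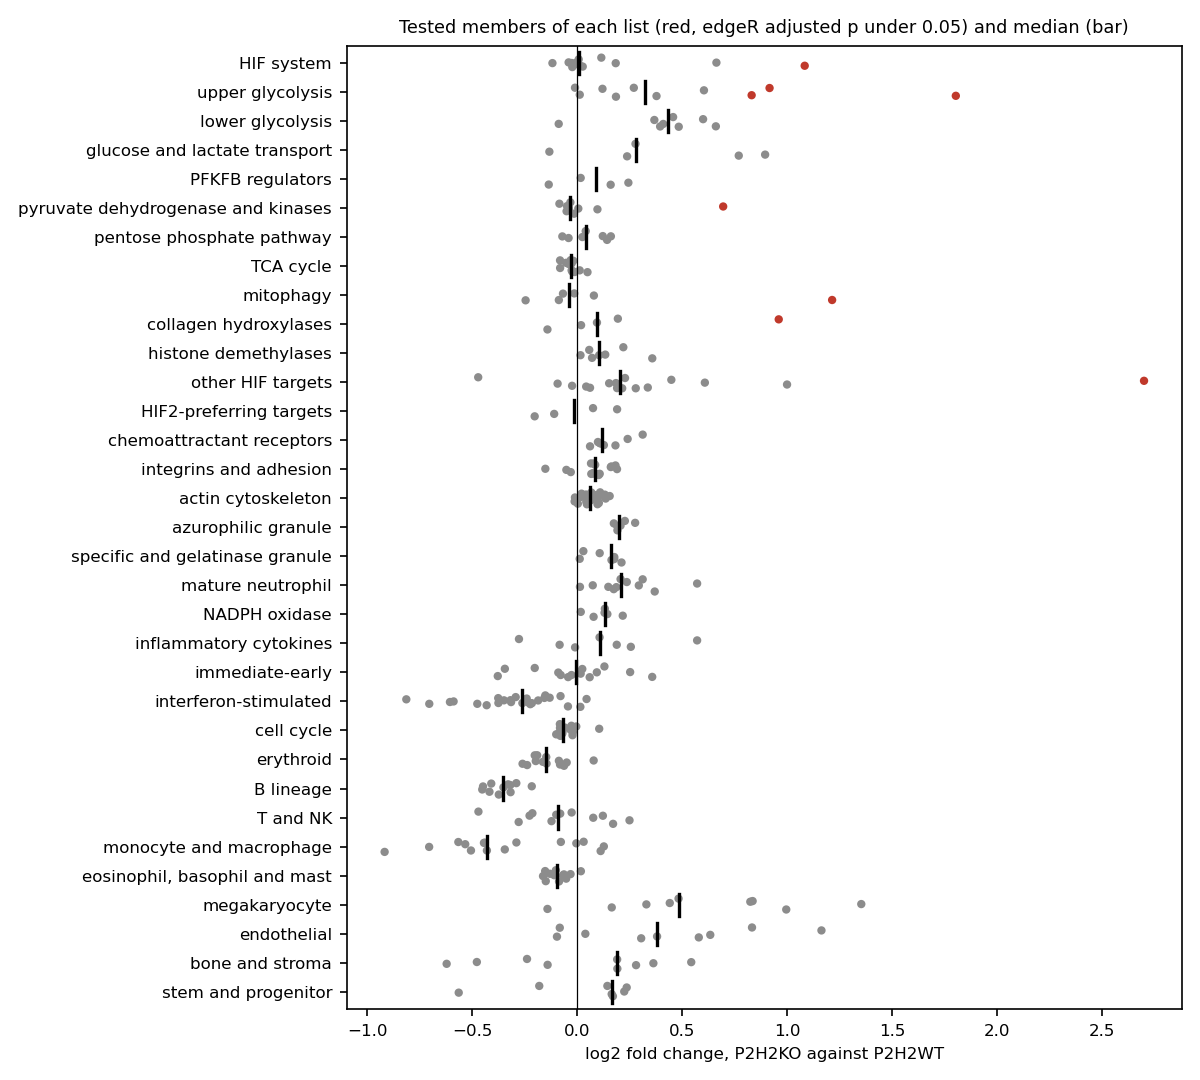
Each row is a gene list and each point the log2 fold change of 1 tested member in P2H2KO against P2H2WT, red where edgeR passed the threshold, with a bar at the median of the list. The glycolysis, transport and other HIF target rows extend to the right, as do the megakaryocyte and endothelial rows with medians of 0.48 and 0.38, the macrophage, B-lineage and interferon rows lie mostly to the left, and the actin row is narrow and close to 0.

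Interferon-stimulated genes were lower in 23 of 25 cases with a median of -0.26, and 1, the deubiquitinase gene Usp18, had an unadjusted p under 0.05. Usp18 was at 13.3, 17.3, 21.9 and 20.3 CPM in P2H2KO and at 20.6, 26.3, 21.8 and 32.9 CPM in P2H2WT. The groups overlapped, and the log2 fold change of -0.48 (SE 0.19) did not pass after adjustment. The list summed to 1172, 1186, 1363 and 1583 CPM in P2H2KO and to 1183, 1705, 1495 and 1901 CPM in P2H2WT, with library 18 of the controls highest. Of 14 immediate-early genes, which sorting stress induces, 7 were higher and 7 lower with a median of -0.005, and of 7 tested inflammatory cytokine genes 4 were higher with a median of 0.11 and none at an unadjusted p under 0.05. Il1b, the largest of these, was at 0.57. Bone and stroma genes (median 0.19, 5 of 9 higher, Lepr at an unadjusted p under 0.05) and stem and progenitor genes (median 0.16, 5 of 7 higher) showed no call. Some genes stand in 2 lists, such as Cxcr2, Rac2, Il1b and Vegfa.

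The line that lacks PHD2 alone has its own controls, so its effect can be set beside that of the double deletion. The difference between the 2 effects, (P2H2KO minus P2H2WT) minus the same in the single-deficient line, was tested in a fit of all 16 libraries. Of 14080 genes none passed after adjustment, by edgeR or DESeq2, and 212 (1.51%) had an unadjusted p under 0.05 in edgeR and 209 in DESeq2. These counts too are no excess over the share of about 0.05 that no difference would give. For the called genes the log2 fold changes in the line lacking PHD2 alone were 3.54 for Gm6472, 2.73 for Ankrd37, 1.52 for Aldoc, 0.96 for Bnip3, 0.75 for Egln3, 0.77 for Dubr, 0.70 for P4ha1, 0.75 for Pfkl, 0.70 for Tpi1 and 0.57 for Pdk1. The differences were -0.06 (SE 0.17) for Gm6472 and -0.02 (SE 0.22) for Ankrd37, and between 0.14 (Pdk1, SE 0.14) and 0.34 (Egln3, SE 0.18) for the other 8. These genes were chosen by their change in the line lacking both proteins, which raises their values there, so nothing is read from the sign of these differences. Selp had 0.23 in the single-deficient line, with a difference of 1.14 (SE 0.49), and Marco -0.75, with a difference of -1.06 (SE 0.49). They were the only named genes with an unadjusted p under 0.05 in this contrast. Selp and Marco were likewise named for their change in the line lacking both proteins. Nothing is therefore read from their differences either. A p that misses the threshold does not show that the lines respond alike.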

How the data were processed

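The authors deposited raw counts of reads per gene, whole numbers without normalization per the file headers and values, in 1 table of 8 libraries per line with 49585 Ensembl identifiers. The submitters' processing notes name HTSeq and mm10. The aligner, the gene annotation used for counting and the strand setting are not given in the sources used here, so overlapping and near-identical genes can share reads. Symbols and coordinates came from GENCODE M21, which matched 49326 identifiers, and promoter sequences from RefSeq (GRCm38.p6). Identity of Gm6472 with Rps7 was measured with blastn 2.17.0.

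With edgeR 4.0.16 (R 4.3.3), genes were filtered by filterByExpr, scaled by TMM and tested two-sided with glmQLFit (robust) and glmQLFTest on the 8 libraries, with Benjamini-Hochberg adjustment over all tested genes and a threshold of 0.05. DESeq2 1.42.0 was an alternative. CPM were computed here from the deposited counts on the TMM-scaled library size. Exact permutation tests used log2(CPM + 1) over 70 splits. The contrast of lines used all 16 libraries. The script was tested on simulated counts.

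Named genes were Egln1 and Epas1, all genes past the edgeR threshold, up to 12 higher and 9 lower that passed in DESeq2 only (mean of at least 1 CPM, no overlap of the groups, no predicted or antigen receptor genes), and up to 4 members of each list with an unadjusted p under 0.05. The comparison, the rule and the 33 lists were chosen with earlier results of these data known, so no test of a list was run. Alternatives were RLE and upper-quartile scaling, a minimum of 10 counts in each library, no filter, DESeq2, the title suffix, the title number or erythroid and granule scores as covariates, a fit of all 16 libraries and leaving out each library. The range of title numbers as a covariate was added after the data had been seen.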

Additional observations from a re-analysis of the deposited data

Results flagged for a closer look

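In 162 groups of 4 libraries checked, 3 values lay far from the other 3 of their group by Dixon's criterion, where chance alone gives about 1 in 20 groups. Egln1 in P2H2WT library 14 was at 46.9 CPM, against 52.2 to 53.0 CPM in the other controls. Grhpr in P2H2KO library 15 was at 15.9 CPM, against 19.9 to 20.5 CPM. The immediate-early genes in P2H2KO library 17 summed to 973 CPM, against 1022 to 1028 CPM.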

How the results depend on the processing

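No paired analysis was possible because the 2 groups share no title number. The count of 10 called genes stayed within 1.5 times under RLE (10), upper-quartile factors (9), no filter (13), a minimum of 10 counts (10), the title suffix (10) and a fit of all 16 libraries (12), all higher except 2 without a filter. It became 42 with DESeq2 (33 higher, 9 lower), 19 with the title number as a covariate (all higher), 24 with erythroid and granule scores (21 higher, 3 lower) and 28 with the range of title numbers (25 higher, 3 lower), each including the 10. Leaving out a library gave 6 to 9, the 6 without P2H2WT library 13. Gm6472, Ankrd37, Bnip3, Egln3, Pfkl and Tpi1 were called in all 8 of these fits, P4ha1 in 5, Aldoc in 4, Dubr in 1 and Pdk1 in 0. Pdk1 was also lost with upper-quartile factors and the suffix, and Dubr in the fit of all 16 libraries. The contrast of lines gave 0 under every alternative. The Egln1 difference ranged from -0.022 to 0.059 on leaving out a library, and its log2 fold change from -0.023 to 0.061, and that was -0.0057 with the suffix, -0.021 with the scores, -0.023 without P2H2KO library 15 and -0.016 without P2H2WT library 14. The upper glycolysis median of 0.32 was 0.20 with the suffix, 0.48 with the title number and 0.18 with the scores, and 0.19 to 0.44 on leaving out a library. That of the histone demethylases was 0.15 with the title number and 0.067 to 0.15 on leaving out a library. The stem and progenitor median was 0.074 with the scores and 0.037 to 0.22 on leaving out a library, that of glucose and lactate transport 0.19 to 0.46, and that of bone and stroma -0.17 (without P2H2KO library 17) to 0.23. The macrophage median stayed between -0.52 and -0.33. The cause of these shifts was not tested. Scaling moved the median of all genes by under 0.01. Depth limits genes such as Marco, Ak4 and Ankrd37, whose control levels were near 1 CPM.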

Other observations

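Immunoglobulin genes, which the naming rule left out and which were looked at after their values were seen, held 3 of the DESeq2 calls. Ighg1, the constant region of an IgG heavy chain (chromosome 12, 113325240 to 113330523, minus strand), was at 102 ± 12.0 CPM (SD, n = 4) in P2H2KO and 40.5 ± 21.9 CPM in P2H2WT without overlap, a log2 fold change of 1.33 (SE 0.31, adjusted p 0.714 in edgeR and 0.00849 in DESeq2). The B-lineage list, made of precursor and mature B-cell genes, was lower in all 11 members. The variable segment Igkv1-122 was at 2.65 with overlapping groups and Igkv17-127 at -1.99.

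With the range of title numbers as a covariate, 4 genes were called that are named nowhere above. Higher were Upp1, a uridine phosphorylase (log2 fold change 1.31, adjusted p 0.0352), Acod1, which makes itaconate (0.96, 0.0461), and the zinc finger gene Zfp654 (0.34, 0.0352). Lower was Lpl, lipoprotein lipase (-0.45, 0.0287). None of the 4 passed in edgeR without the covariate, and Zfp654 also passed in DESeq2 (adjusted p 0.0124).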
